A study of Mus musculus with 12 samples.

Results

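The cytosolic ribosomal protein genes are 93 of the 55291 gene symbols in the count table, 55 of the large and 38 of the small ribosomal subunit. They were chosen by name: symbols of Rpl or Rps followed by a digit, together with Rplp0, Rplp1, Rplp2 and Rpsa, without pseudogene symbols, the S6 kinases and Rps19bp1. GENCODE M21 annotates 85 of them as protein coding and 7 as pseudogenes (Rpl32l, Rpl37rt, Rpl6l, Rps12l1, Rps3a2, Rps3a3 and Rps4l), and 1 symbol, Rps23rg1, was not found there. For the tests 89 members had enough counts, 53 of the large and 36 of the small subunit. Rpl10l and Rps12l1 had 0 counts in all libraries, Rps23rg1 had 4 and Rpl6l had 69.

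Counts came from RNA of the non-adherent cells of mouse bone marrow, kept for about 24 hours in alpha-MEM after collection from mice about 8 weeks old. The 12 libraries form 4 groups of 3: control mice left untreated, homozygous mice left untreated, control mice given short-chain fatty acids (SCFA) in the drinking water, and homozygous mice given SCFA. Homozygous mice carry STAT3Cstopfl/fl with CD4Cre, a constitutively active STAT3 whose stop cassette a Cre under the CD4 promoter removes; the label of homozygous untreated 1 adds R26, and it was kept with its group. The genotype of the controls is given only as control, and the labels do not say that replicates are separate mice, so the p-values measure the spread between libraries, which may be technical. CD4-Cre acts mainly in T cells, while the 6 T cell markers examined summed to only 26.9 to 64.1 CPM (each gene's count scaled to a common library total) in a library.

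Every ribosome needs 1 copy of nearly every one of these proteins, and cells make them in matched amounts. Their mRNAs begin with a short pyrimidine tract through which mTORC1 signalling sets their translation, and MYC drives their transcription. In marrow they matter to the erythroid lineage above all, since loss of a single copy of RPS19, RPL5, RPL11 or other members causes Diamond-Blackfan anaemia.

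Several properties of the libraries touch all the values that follow. Totals ranged from 16954355 to 20748995 counts. The sample names date all untreated libraries to March 1 and all SCFA libraries to March 30 of the same year, so SCFA and that date cannot be told apart. Stat3, of which homozygous mice carry an active form, had 274, 438 and 359 CPM in control untreated, 293, 267 and 322 in untreated homozygous libraries, 249, 247 and 224 in control libraries with SCFA, and 319, 374 and 398 in homozygous libraries with SCFA. It was higher in homozygous mice under SCFA (log2 fold change 0.60, adjusted p = 0.016, edgeR) and not called without it (-0.28, adjusted p = 0.22), so it does not check the genotype labels of the untreated libraries. The cells are labelled progenitors, but 5 stem and progenitor markers (Kit, Cd34, Flt3, Gata2 and Meis1) summed to 159 to 224 CPM in a library, against 34240 to 76471 CPM for 7 late neutrophil markers. Cell makeup moved with the groups. The 8 erythroid markers summed to 17399 to 19394 CPM in control and 8248 to 11484 CPM in homozygous untreated libraries, and to 11126 to 13138 CPM in control and 2248 to 2640 CPM in homozygous libraries with SCFA. Car1 and Klf1 went against this sum: Car1 rose by genotype without SCFA, under SCFA and with SCFA in homozygous mice (log2 fold change 3.24, 6.67 and 2.74), and Klf1 rose by genotype under SCFA (1.15). The 11 B-lineage markers summed to 1391 to 1512, 477 to 519, 1318 to 1347 and 110 to 126 CPM in these 4 groups, and 2 of the 11 had 0 counts in homozygous SCFA libraries. Late neutrophil markers summed to 34240 to 53880 CPM in control untreated libraries and 56485 or more in the others, and 5 monocyte markers to 3823 to 5558 CPM in control and 6322 to 7209 CPM in homozygous libraries. The 4 plasmacytoid dendritic cell markers were lower and the 3 megakaryocyte markers higher in homozygous than in control libraries under SCFA (89.1 to 125 against 423 to 429 CPM, and 938 to 1140 against 620 to 703 CPM). Of 12 nuclear and mitochondrial RNAs, which bear on RNA quality, 8 rose with SCFA in control mice and 0 fell. Of all genes tested 8.89% rose and 13% fell there. The calls were 0 by genotype without SCFA, 1 fall under SCFA and 1 rise with SCFA in homozygous mice. Of all genes 14.8%, 17.4% and 9.58% were called. At an unadjusted p under 0.05 (edgeR) genotype without SCFA had 4 above and 0 below 0. Of all 15674 genes 2330 and 2742 were. The 12 RNAs summed to 7948 to 16092, 13172 to 16805, 16049 to 20349 and 12492 to 13940 CPM in the 4 groups as ordered above. The part of RNA quality and cell makeup in the results was not tested, and in bulk RNA fewer cells of a type and less RNA per cell cannot be told apart.

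A trend with base composition also moved with the groups. Coding GC is the percentage of G and C in the coding sequence of a gene's representative transcript. It ranged from 39.6% (Rpl22l1) to 61.3% (Rpl36), with a median of 52.3%, among the 79 protein-coding members that averaged 5 CPM or more. In each library the deviation of log2 CPM from the gene's mean over libraries was regressed on coding GC. Over 9359 other genes the slope was 0.03, 0.61 and 0.31 log2 units per 10 percentage points in control untreated 1, 2 and 3, and -0.15, -0.30 and -0.05 in homozygous untreated 1, 2 and 3. It was -0.15, -0.23 and -0.39 in the control SCFA libraries and -0.09, 0.26 and 0.16 in the homozygous SCFA libraries. The 79 members had slopes of 0.12, 0.92 and 0.46, then -0.27, -0.50 and -0.02, then -0.31, -0.56 and -0.65, and last 0.01, 0.43 and 0.37. The slopes of the members had the same sign as those of the other genes in 11 of 12 libraries; in homozygous SCFA 1 both were within 0.1 of 0.

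**Figure D1:**
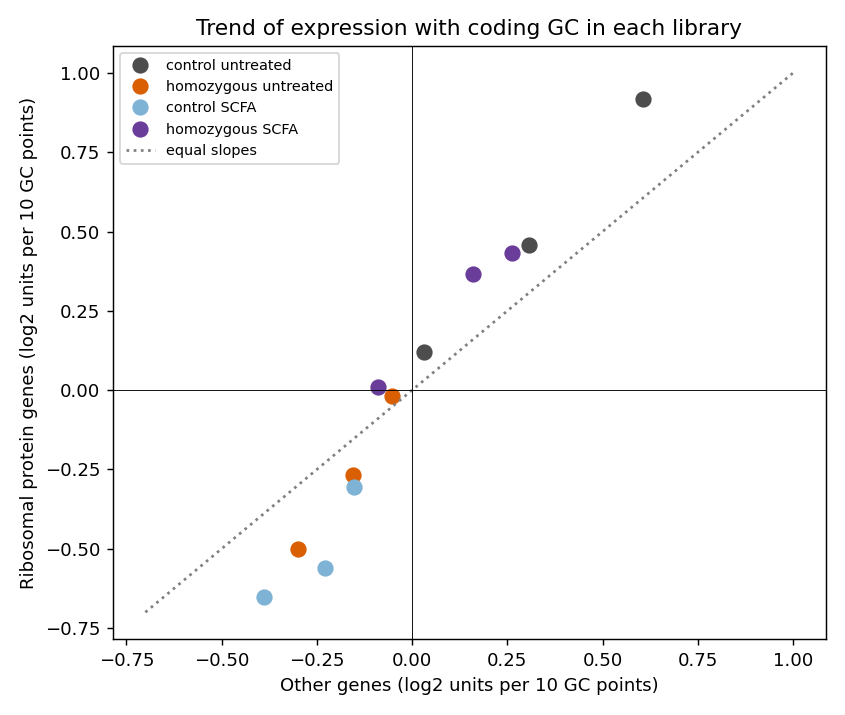
Slope of log2 CPM (deviation from each gene's mean) on coding GC, in log2 units per 10 percentage points, for 9359 other genes (x axis) and 79 ribosomal protein genes (y axis); each point is 1 library, coloured by group. Control untreated 2 lies at the upper right with 0.61 and 0.92, and the 3 control SCFA libraries lie at the lower left with member slopes of -0.31 to -0.65.

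Each comparison was therefore also fitted with offsets that remove, library by library, the curve of expression on GC seen in genes other than the members. These offsets remove any difference that follows GC, whatever its source. They were chosen after the trend had been seen, once with the GC of the whole transcript and once with coding GC, and both counts are given.

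The coding starts of members from either end of the GC range show the contrast. The first 60 coding bases are printed for the 3 lowest and the 3 highest in coding GC among protein-coding members that had a called interaction of genotype and SCFA and averaged 5 CPM or more. Sequences are of GENCODE M21 transcripts (GRCm38), written 5′ to 3′ with G and C in capitals.
Rpl39: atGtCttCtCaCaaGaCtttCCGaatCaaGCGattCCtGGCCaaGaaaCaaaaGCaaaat
Rpl30: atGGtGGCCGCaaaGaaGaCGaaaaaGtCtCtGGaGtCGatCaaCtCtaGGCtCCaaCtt
Rps27l: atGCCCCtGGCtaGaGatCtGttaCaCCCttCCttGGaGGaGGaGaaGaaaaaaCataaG
Rps15: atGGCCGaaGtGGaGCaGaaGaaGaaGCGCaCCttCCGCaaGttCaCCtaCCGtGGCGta
Rpl18: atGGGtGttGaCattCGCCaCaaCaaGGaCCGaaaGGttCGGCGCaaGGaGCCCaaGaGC
Rpl36: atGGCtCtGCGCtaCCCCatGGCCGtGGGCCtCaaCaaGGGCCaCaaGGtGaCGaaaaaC
These stretches hold 40.0%, 48.3% and 46.7% G and C in the first 3 and 56.7%, 56.7% and 60% in the last 3. Rpl39 lies at chrX:37082520-37085402 (minus strand), Rpl30 at chr15:34440505-34443640 (minus), Rps27l at chr9:66946086-66949516 (plus), Rps15 at chr10:80292453-80294114 (plus), Rpl18 at chr7:45715457-45720836 (plus) and Rpl36 at chr17:56613416-56614243 (plus).

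Together the members took less than 1% of the counts in every library. Large subunit genes held 0.451% ± 0.013 (SD, n = 3) of the counts in control untreated libraries, 0.432% ± 0.045 in untreated homozygous libraries, 0.400% ± 0.012 in control SCFA libraries and 0.423% ± 0.044 in homozygous SCFA libraries. Small subunit genes held 0.380% ± 0.011, 0.392% ± 0.046, 0.364% ± 0.014 and 0.374% ± 0.040 in the same order. Large subunit shares did not overlap between control SCFA and control untreated libraries, while the other groups compared overlapped. The ratio of large to small subunit counts was 1.18, 1.19 and 1.19 in the control untreated libraries and at most 1.15 in the other 9. It averaged 1.18 ± 0.0065 (SD, n = 3) there, 1.10 ± 0.016 in homozygous mice without SCFA, and 1.10 ± 0.012 in control and 1.13 ± 0.018 in homozygous mice with SCFA. In a two-sided exact permutation test with 3 libraries against 3 the smallest possible p is 0.10. It was reached for the ratio by genotype without SCFA, genotype under SCFA and SCFA in control mice, and for the large subunit share by SCFA in control mice, each with an adjusted p of 0.30 over the 12 comparisons of shares and ratios.

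**Figure D2:**
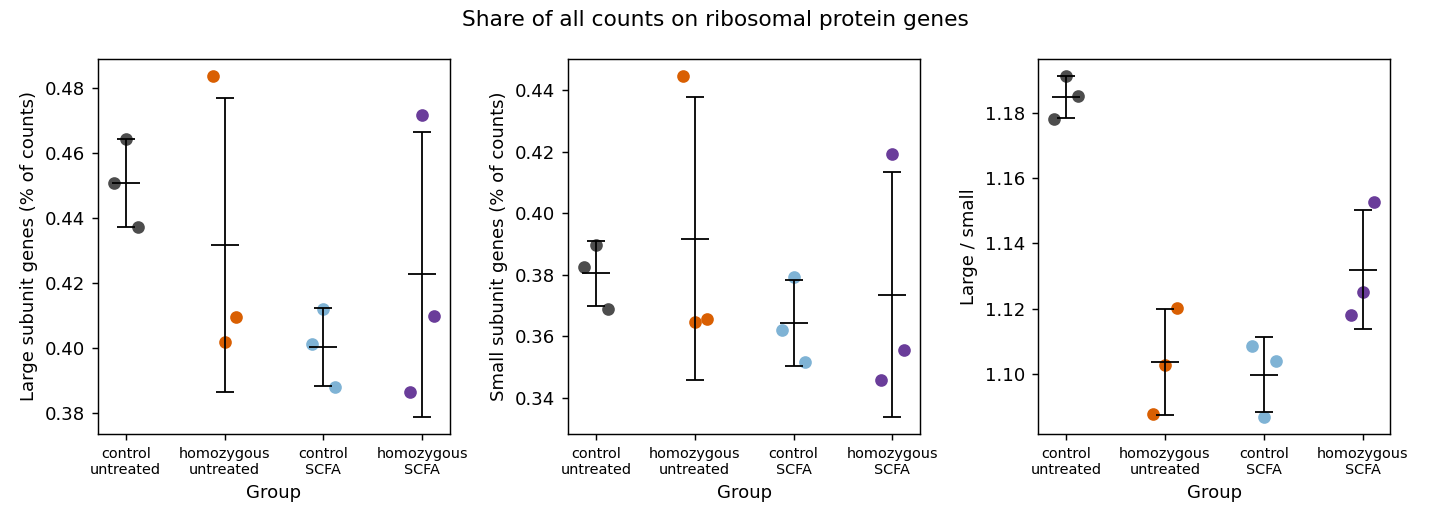
Share of all counts on large subunit genes (left) and small subunit genes (middle), in percent, and the ratio of both (right), by group; points are libraries, the long tick is the mean and bars are the SD (n = 3), and the y axes do not start at 0. The 3 control untreated libraries lie above the other 9 in the ratio, at 1.18 to 1.19.

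Levels per length (TPM, CPM corrected for the summed exon length) ranged widely for proteins that assemble in equal numbers. Among members that averaged 5 CPM or more the 2 highest averages over the 12 libraries were 697 TPM for Rps3a1 (SD 129) and 690 for Rps27l (SD 135). The lowest were 6.69 TPM for Rps10, 16.5 for Rpl13a and 17.6 for Rpl10a. The 2 highest do not differ beyond their spread over libraries, nor do Rpl13a and Rpl10a (SD 4.53 and 3.73). The order depends on the length used: by transcript length Rps27l was highest at 787 TPM and Rps3a1 ranked 10, while Rps4l and Rpl37rt (13.2 and 19.6 TPM) were lower than Rpl13a and Rpl10a (23.3 and 40.9 TPM). Ribosomal protein genes have many processed copies: at the median member, 53.5% of the 50-base windows of its transcript also occur in a transcript of another gene. That share was 56.8% for Rps10, 88.1% for Rpl10a, 71.0% for Rps3a1 and 22.4% for Rps27l. Over 79 members its Spearman correlation with the level by transcript length was 0.01. How reads that fit several places were counted is not given in the sources used here, so levels of single members, low or high, are uncertain. The 305 pseudogene rows of ribosomal protein genes held 19652 counts in all libraries, against 1837570 on the members.

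In untreated mice, homozygous libraries had more RNA of 17 members than control libraries, and less of 1. Adjusted p under 0.05 (edgeR quasi-likelihood test, Benjamini-Hochberg over 15674 genes) is called throughout. Of 53 large subunit genes 7 rose and 0 fell; of 36 small subunit genes 10 rose and 1 fell. Over all genes tested 6.69% rose and 8.13% fell (14.8% called). The median log2 fold change was 0.03 for the large and 0.16 for the small subunit, against -0.04 for all genes. At an unadjusted p under 0.05, 6 of 53 large subunit genes were lower, as were 2742 of all 15674 genes tested. DESeq2 and limma-voom called 3 large subunit genes each lower. These 2 tools called 24.5% and 25.0% of all genes. Scaling by library totals alone moved the median of all genes from -0.04 to -0.18, and the calls were then 4 higher and 5 lower in the large and 7 and 3 in the small subunit. With that scaling 17.3% of all genes were called. Rpl39, Rpl36a, Rps27l, Rpl23, Rps15a, Rps27a, Rpl5 and Rps29 rose by 0.72 to 1.14 on the log2 scale. With GC offsets 7 large subunit genes rose and 1 fell by whole transcript GC, and 5 rose by coding GC; of the small subunit 10 and 6 rose. Of all genes 4.64% rose and 4.77% fell by transcript GC (9.4% called), and 4.87% rose and 4.63% fell by coding GC (9.5% called). Rpl23, Rpl36a, Rps12, Rps13, Rps27l and Rps29 rose in all 3 fits. These counts rest on single libraries: the large subunit count was 0 without control untreated 2, without control untreated 3 or without homozygous untreated 1, 1 without homozygous untreated 2, 4 without homozygous SCFA 3 and 14 without control untreated 1. The small subunit count was 1 without any of control untreated 2, control untreated 3, homozygous untreated 1 and homozygous untreated 2. The count over all genes moved with them, from 2323 to 883, 1109, 888 and 770 without those 4 libraries. It was 1789 without homozygous SCFA 3 and 4333 without control untreated 1.

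Under SCFA, Rps15a, Rps3a1 and Rps4x fell and Rps4l rose in homozygous libraries, each opposite to its call between genotypes without SCFA. How many of all genes were called in opposite directions was not counted, and 25.1% of all genes had a called interaction of genotype and SCFA. In homozygous libraries under SCFA 12 large subunit genes rose and 1 fell, and 10 small subunit genes rose and 3 fell. The background was 8.89% of all genes tested that rose and 8.47% that fell (17.4% called). The median was 0.18 for the large and 0.07 for the small subunit, against -0.02 for all genes. Rps4l rose by 1.43, Rpl18 by 0.79, Rps9 by 0.73, and Rps18, Rps19 and Rpl36 by 0.72 each on the log2 scale. Rps15a fell by 0.61, Rps3a1 by 0.58, Rps4x by 0.57 and Rpl7 by 0.54. With GC offsets from whole transcripts 10 large and 7 small subunit genes rose and 0 and 2 fell; with coding GC 8 and 7 rose and 0 and 2 fell. Of all genes 8.92% rose and 7.55% fell by transcript GC (16.5% called), and 9.0% rose and 7.63% fell by coding GC (16.6% called). Called in all 3 fits were 9 rises, of Rpl18, Rpl37a, Rpl7a, Rplp0, Rps14, Rps18, Rps3, Rps4l and Rps9, and 2 falls, of Rps3a1 and Rps4x. The large subunit count was 5 without control SCFA 2, 3 without control SCFA 3, 3 without homozygous SCFA 2 and 8 without homozygous SCFA 3. The small subunit count was 4, 3, 3 and 6 without the same libraries, and the count over all genes went from 2722 to 1738, 1431, 1512 and 1585.

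SCFA in control mice gave 43 called members, the most of the 4 comparisons between 2 groups without offsets but not with them, when 15 (transcript GC) and 14 (coding GC) were called, against 19 and 17 by genotype under SCFA. Of the large subunit genes 9 rose and 13 fell, and of the small subunit 11 rose and 10 fell, where 8.89% of all genes tested rose and 13% fell (21.9% called). Medians were -0.15 and 0.02, against 0.04 for all genes. Scaled by library totals alone, 8 rose and 17 fell in the large and 7 rose and 10 fell in the small subunit, where 21.3% of all genes were called. Rpl3l, Rpl39, Rpl23, Rpl30, Rps15a, Rpl36a and Rps29 rose by 0.77 to 1.19 on the log2 scale, while Rps4l fell by 1.02, Rpl18 by 0.84, Rpl8 by 0.80, Rpl7a and Rplp0 by 0.77 each and Rps15 by 0.74. With either set of GC offsets 3 large subunit genes rose and 5 fell; 6 of the 22 calls without offsets were among them by transcript GC and 7 by coding GC. In the small subunit 5 rose and 2 fell by transcript GC and 4 rose and 2 fell by coding GC. Of all genes 2.44% rose and 3.22% fell by transcript GC (5.65% called), and 4.25% rose and 5.33% fell by coding GC (9.58% called). Rpl3l, Rps13, Rps15a and Rps29 rose, and Rpl4, Rpl7a, Rpl7l1, Rplp0 and Rps3 fell, in all 3 fits. Without control SCFA 3 the counts were 3 large and 1 small, without control SCFA 2 they were 9 and 6, without control untreated 2 they were 7 and 6, and without control untreated 3 they were 10 and 11. The count over all genes went from 3432 to 613, 1697, 1292 and 1935 without these libraries.

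SCFA in homozygous mice gave 2 calls. Rps4l rose by 1.14 and Rps4x fell by 0.66 on the log2 scale, where 3.96% of all genes tested rose and 5.61% fell (9.58% called). Both passed with either set of GC offsets, where 6.27% of all genes rose and 6.16% fell by transcript GC (12.4% called) and 5.84% rose and 5.68% fell by coding GC (11.5% called). Without offsets or with coding GC offsets edgeR called 0 large subunit genes, and with transcript GC offsets it called 2, Rpl37a (higher) and Rpl5 (lower). Without offsets 14 of 53 large subunit genes had an unadjusted p under 0.05, 6 above and 8 below 0. At that threshold 1830 of all 15674 genes tested were above and 2026 below 0. DESeq2 called 5 of 53 and 15.3% of all genes, and limma-voom with quality weights called 9 and 19.1%. The large subunit count was 1 without control untreated 1 and 3 without control untreated 2. The small subunit count was 6 and 7 without those, and 1 without homozygous SCFA 3 or without homozygous untreated 2.

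The interaction tests whether the difference between genotypes changed with SCFA. It was above 0 for 10 and below 0 for 11 large subunit genes, and above for 9 and below for 13 small subunit genes; over all genes tested 13.6% were called above and 11.6% below (25.1% called). The interaction shares its libraries with the other comparisons and is no separate evidence for them. With transcript GC offsets 5 large subunit genes were above and 8 below, and 4 small subunit genes above and 8 below; with coding GC the counts were 5 and 6, and 3 and 7. Of all genes 5.03% were above and 4.42% below by transcript GC (9.45% called), and 6.38% above and 5.6% below by coding GC (12% called). Called in all 3 fits were 14 members: Rplp0, Rps18, Rps3 and Rps4l above 0, and Rpl12, Rpl23, Rpl31, Rpl5, Rps12, Rps13, Rps15a, Rps29, Rps3a1 and Rps4x below. The large subunit count was 13 without any one of control SCFA 3, homozygous untreated 2, homozygous SCFA 2 and homozygous SCFA 3.

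Calls differed in number and direction between members above and below the median coding GC. The 39 members with coding GC above 52.3% had 2 rises and 0 falls by genotype without SCFA, 20 and 0 by genotype under SCFA, and 1 and 19 by SCFA in control mice. The 40 members at or below it had 15 and 0, 1 and 4, and 18 and 3. Of all genes 14.8%, 17.4% and 21.9% were called in these comparisons. With SCFA in homozygous mice 0 members above the median and 1 at or below it were called, where 9.58% of all genes were. Their median log2 fold changes were -0.14 and 0.39, then 0.45 and -0.23, then -0.46 and 0.44. Across the 79 members the log2 fold change and coding GC had Pearson's r of -0.75, 0.78, -0.76 and 0.73 in the 4 comparisons between 2 groups and 0.79 for the interaction; across 9452 other genes r was -0.55, 0.31, -0.65, 0.28 and 0.59. Genes are not independent replicates, and all share the libraries, so these values describe the trend only. With coding GC offsets the GC-rich members had 5 rises and 0 falls, 11 and 0, and 3 and 4, and the GC-poor had 6 and 0, 3 and 2, and 3 and 3, where 9.5%, 16.6% and 9.58% of all genes were called. Rps29 was an exception: its coding GC was 58.5% and it rose with the GC-poor members.

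**Figure D3:**
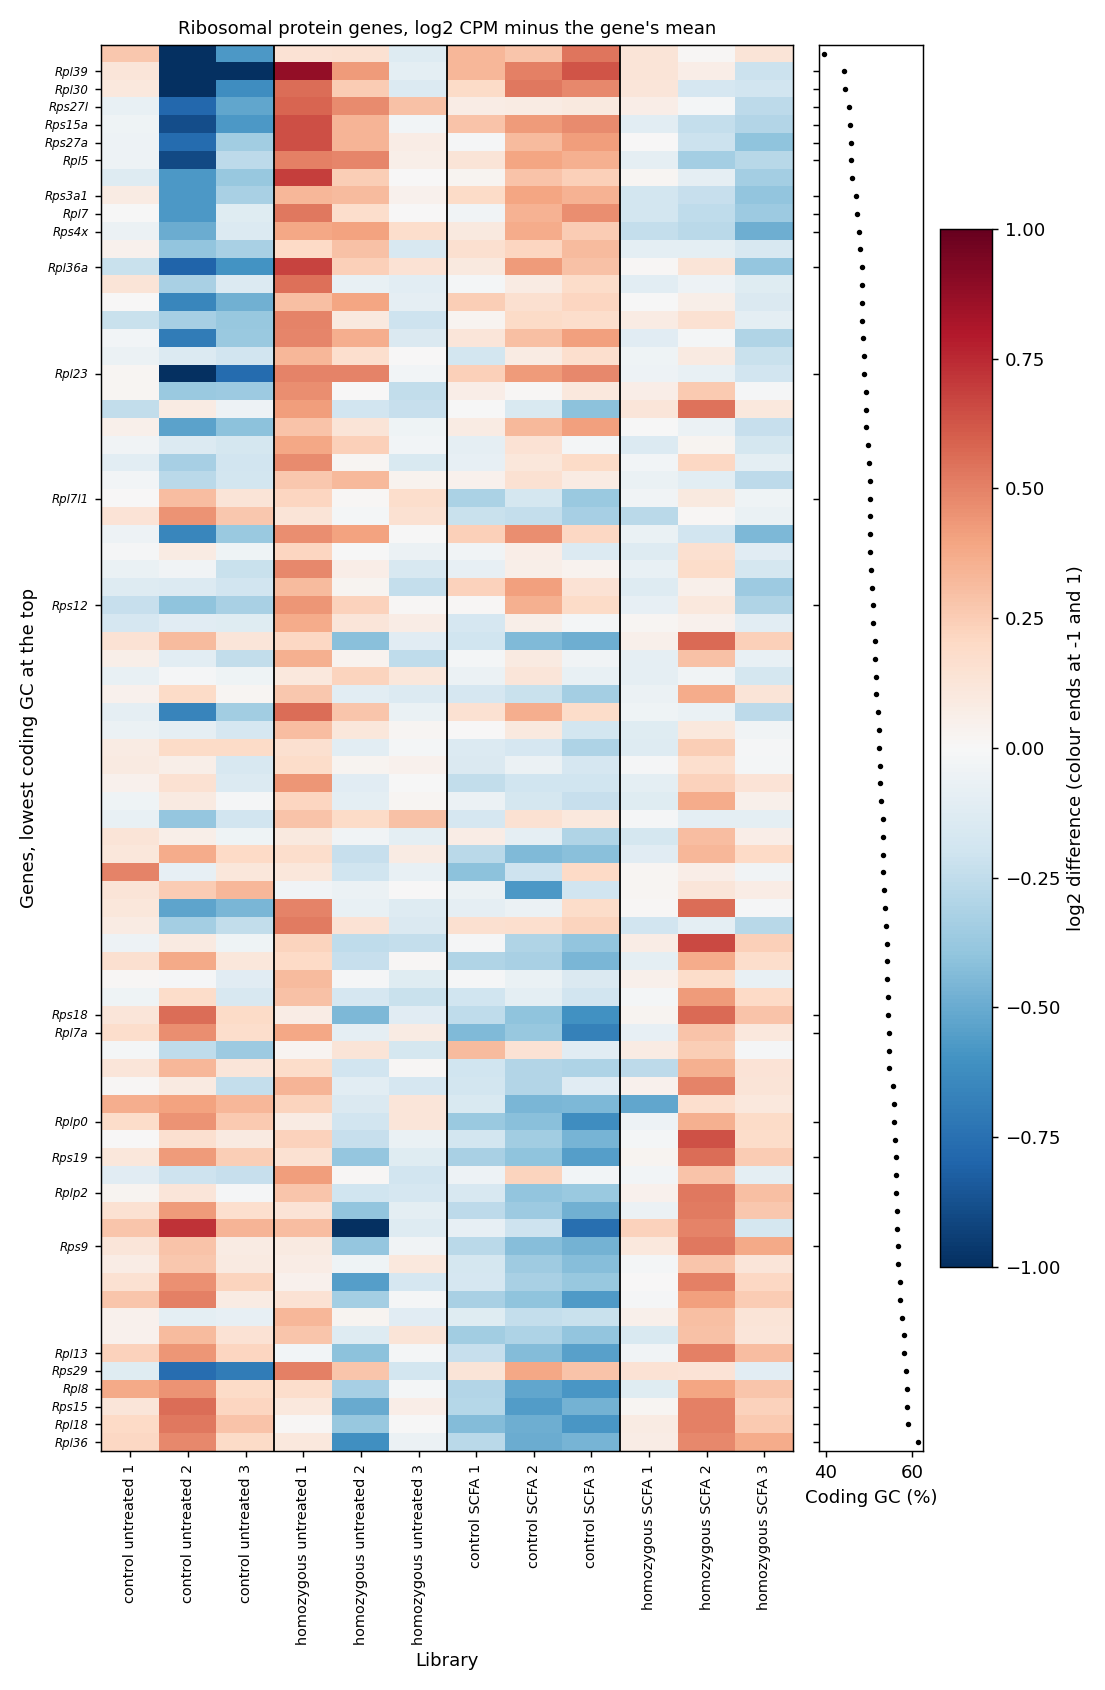
log2 CPM minus the gene's mean over the 12 libraries for 79 ribosomal protein genes, ordered from the lowest coding GC (top) to the highest (bottom), with coding GC in percent at the right; names are given for members described in the text, and colours end at -1 and 1. Control untreated 2 is low at the top and high at the bottom, control SCFA 3 mostly the reverse, and homozygous untreated 1 is high over most of the GC range.

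**Figure D4:**
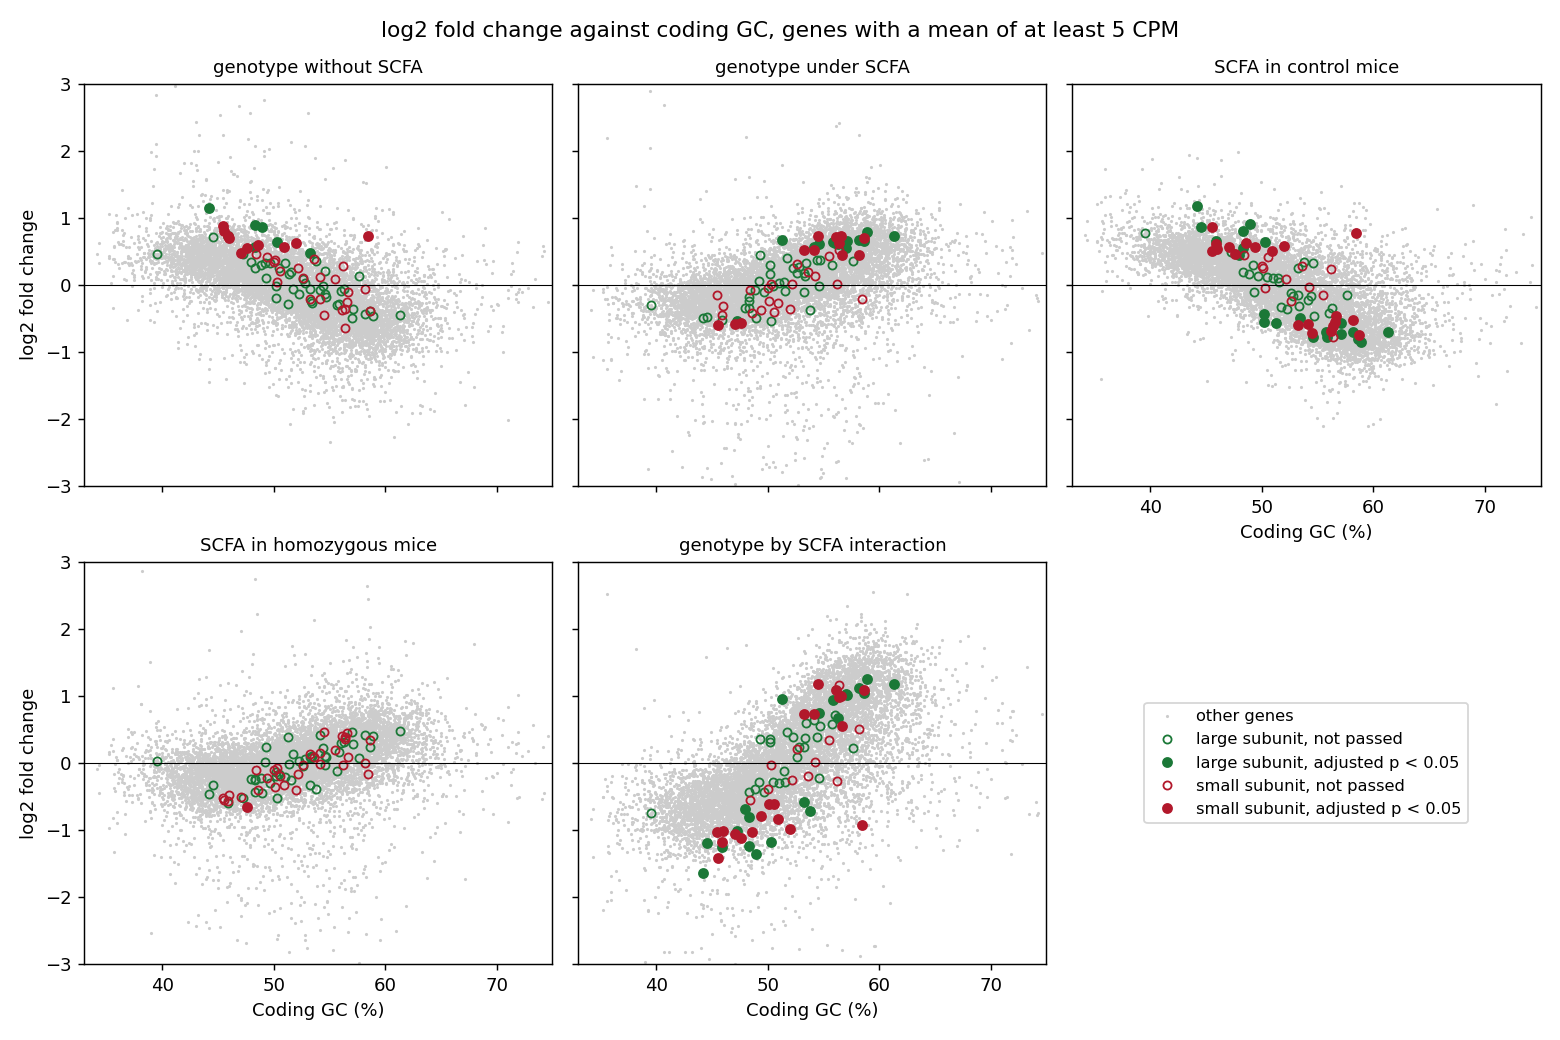
log2 fold change (edgeR) against coding GC in percent for genes that averaged 5 CPM or more, 1 panel per comparison; grey points are other genes, open and filled circles are members below and past adjusted p 0.05, and genes beyond 3 log2 units or the GC range drawn are left out. The members slope down in genotype without SCFA and SCFA in control mice and up in the other 3 panels.

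The stalk proteins Rplp0, Rplp1 and Rplp2 form the flexible arm that recruits the translation factors. Rplp0, which anchors the stalk, had 241, 291 and 255 CPM in control untreated libraries, 225, 186 and 231 in untreated homozygous libraries, 164, 159 and 138 in control libraries with SCFA, and 205, 271 and 242 in homozygous libraries with SCFA. The control SCFA libraries were lower than all the other 9. Rplp0 fell with SCFA in control mice by 0.77 (SE 0.14, adjusted p = 0.0049, edgeR) and was higher by 0.64 (SE 0.14, adjusted p = 0.0056) in homozygous than in control mice under SCFA. With coding GC offsets these were -0.39 (adjusted p = 0.012) and 0.41 (adjusted p = 0.0030), and both calls held in all 25 other settings tried. Rplp2 had 51.8, 55.1 and 50.4, then 61.5, 44.2 and 45.1, then 45.3, 38.6 and 39.3, and last 52.4, 73.2 and 62.6 CPM in the same order. Rplp2 rose by 0.61 between genotypes under SCFA (adjusted p = 0.018, edgeR), but not with coding GC offsets (0.35, adjusted p = 0.10). Rplp1 had group means of 60.6, 66.7, 54.7 and 70.0 CPM and passed no comparison without offsets; with coding GC offsets its difference by genotype without SCFA was 0.52 (adjusted p = 0.046).

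Rpl5 and Rpl11 bind the 5S ribosomal RNA, and the complex of the 3 restrains MDM2 when ribosome assembly fails. Rpl5 (chr5:107900502-107909005) had 116, 64.0 and 99.8 CPM in control untreated libraries, 169.6, 168 and 125 in untreated homozygous libraries, 131, 158 and 153 in control libraries with SCFA, and 113, 94.6 and 98.7 in homozygous libraries with SCFA. Control untreated and homozygous SCFA libraries, all at most 116, did not overlap with the other 2 groups, all at least 125. Rpl5 rose by 0.73 (SE 0.19, adjusted p = 0.023, edgeR) by genotype without SCFA and by 0.66 (SE 0.19, adjusted p = 0.025) with SCFA in control mice, and its interaction was -1.26 (SE 0.27, adjusted p = 0.0056). With coding GC offsets the interaction was -0.67 (adjusted p = 0.027) and the other 2 values were 0.42 and 0.31 (adjusted p = 0.052 and 0.14). Its partner Rpl11 stayed between 25.5 and 38.8 CPM in all libraries and passed no comparison; its interaction was 0.23 (SE 0.22, adjusted p = 0.46). The coding GC was 45.9% for Rpl5 and 53.3% for Rpl11.

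Proteins around the exit of the nascent chain tunnel (Rpl17, Rpl19, Rpl22, Rpl23a, Rpl26, Rpl31, Rpl35 and Rpl39) had 2 rises of 8 by genotype without SCFA, 0 under SCFA (edgeR; 3 at an unadjusted p under 0.05), 3 rises with SCFA in control mice, and 3 interactions below 0. Of all genes 14.8%, 17.4%, 21.9% and 25.1% were called in these comparisons. At an unadjusted p under 0.05, 2512 of all 15674 genes were above and 2404 below 0 by genotype under SCFA. Rpl39, a very small protein that lines the tunnel, had 167, 47.5 and 72.6 CPM in control untreated libraries, 284, 207 and 143 in untreated homozygous libraries, 194, 218 and 238 in control libraries with SCFA, and 169, 161 and 132 in homozygous libraries with SCFA. Control untreated 1 was more than 2 times as high as the other 2 of its group and overlapped the homozygous untreated libraries. Rpl39 rose by 1.14 (SE 0.35, adjusted p = 0.040, edgeR) by genotype without SCFA and by 1.18 (SE 0.35, adjusted p = 0.028) with SCFA in control mice; with coding GC offsets the values were 0.83 and 0.81 (adjusted p = 0.076 and 0.081). Rpl23, of the large subunit, had 102, 49.2 and 59.2, then 142, 143 and 99.2, then 119, 136 and 141, and last 97.4, 95.8 and 88.5 CPM. Its control SCFA libraries lay above all control untreated and all homozygous SCFA libraries. The interaction of Rpl23 was -1.35 (SE 0.31, adjusted p = 0.0081, edgeR), and -1.01 (adjusted p = 0.030) with coding GC offsets.

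Among the GC-rich large subunit genes, Rpl18 had 74.4, 93.5 and 79.0 CPM in control untreated, 65.3, 49.9 and 64.4 in untreated homozygous libraries, 48.0, 46.1 and 43.3 in control libraries with SCFA, and 68.6, 92.0 and 77.6 in homozygous libraries with SCFA. Its control SCFA libraries lay below all the others. Rpl18 fell by 0.84 (SE 0.15, adjusted p = 0.0049, edgeR) with SCFA in control mice and rose by 0.79 (SE 0.15, adjusted p = 0.0027) by genotype under SCFA; with coding GC offsets the values were -0.32 (adjusted p = 0.058) and 0.43 (adjusted p = 0.0078). Rpl36 had group means of 40.7 ± 4.68, 29.7 ± 7.19, 25.0 ± 2.19 and 41.3 ± 5.85 CPM (SD, n = 3). Its interaction of 1.18 (SE 0.26, adjusted p = 0.0068, edgeR) was 0.39 (adjusted p = 0.22) with coding GC offsets.

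Small subunit proteins along the path of the mRNA (Rps2, Rps3, Rps14, Rps23, Rps26 and Rps28) had 3 rises of 6 by genotype under SCFA and 3 falls with SCFA in control mice; the 3 in each case were Rps2, Rps3 and Rps14. Of all genes 8.89% rose under SCFA and 13% fell with SCFA in control mice. None of the 6 was called by genotype without SCFA (edgeR without offsets), and 2 had an unadjusted p under 0.05. At that threshold 2330 of all 15674 genes were above and 2742 below 0 by genotype without SCFA. With GC offsets Rps2 (both sets) and Rps28 (coding GC) rose in that comparison. Under SCFA, Rps3 and Rps14 but not Rps2 stayed called with either set, and Rps26 was added by transcript GC. With SCFA in control mice Rps3 alone stayed called, and Rps28 was added by coding GC. Rps18, at the head of the subunit near the bound tRNA, had 104, 141 and 109 CPM in control untreated, 101, 70.1 and 88.4 in untreated homozygous libraries, 80.1, 72.4 and 62.9 in control libraries with SCFA, and 97.5, 141 and 117 in homozygous libraries with SCFA. The 2 SCFA groups did not overlap. Rps18 was higher by 0.72 (SE 0.18, adjusted p = 0.012, edgeR) in homozygous mice under SCFA, and by 0.59 (adjusted p = 0.0059) with coding GC offsets. Its interaction was 1.17 and, with those offsets, 0.82 (adjusted p = 0.0055 and 0.011).

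Rps15a had 80.4, 45.0 and 55.7 CPM in control untreated, 129.5, 105 and 81.4 in untreated homozygous libraries, 101, 112 and 115 in control libraries with SCFA, and 77.0, 70.5 and 67.8 in homozygous libraries with SCFA. Every library of homozygous untreated and control SCFA mice was above every library of the other 2 groups. The interaction of Rps15a was -1.41 (SE 0.28, adjusted p = 0.0040, edgeR), and -0.80 (adjusted p = 0.023) with coding GC offsets. Rps29, a zinc-binding protein of the small subunit head, had group means of 93.2 ± 24.1, 154 ± 36, 159 ± 14 and 138 ± 13 CPM (SD, n = 3). It rose by 0.72 by genotype without SCFA and by 0.77 with SCFA in control mice (adjusted p = 0.024 and 0.014, edgeR); with coding GC offsets the values were 1.11 and 1.25.

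Of 12 members whose human counterparts are Diamond-Blackfan anaemia genes (among them Rpl5, Rpl11, Rpl35a, Rps7, Rps19, Rps24 and Rps29), 4 rose by genotype without SCFA: Rpl5, Rpl35a, Rps24 and Rps29. Under SCFA Rps19 alone rose. With SCFA in control mice 5 rose and Rps19 fell, and with SCFA in homozygous mice 0 were called (edgeR; 3 at an unadjusted p under 0.05). Of all genes 14.8%, 17.4%, 21.9% and 9.58% were called in these comparisons. At an unadjusted p under 0.05, 1830 of all 15674 genes were above and 2026 below 0 with SCFA in homozygous mice. With coding GC offsets the calls were 1, 1 and 1 rises in the first 3 comparisons. The sums of the erythroid markers, given above, did not overlap between the groups of any of these comparisons, and their part in these values was not tested.

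Several members are second copies. Rps27l, the paralog of Rps27 and a target of p53, had the higher count of the pair in all 12 libraries. Rps27l had 203, 124 and 149 CPM in control untreated, 320.0, 296 and 261 in untreated homozygous libraries, 225, 226 and 228 in control libraries with SCFA, and 223, 211 and 178 in homozygous libraries with SCFA. The homozygous untreated libraries were the 3 highest of the 12. Rps27l rose by 0.88 (SE 0.16, adjusted p = 0.0032, edgeR) by genotype without SCFA and passed in all 25 other settings tried, at 0.56 to 1.07; Rps27 changed by 0.20 (SE 0.15, adjusted p = 0.37). Rps27 shares 98.6% of its 50-base windows with other genes and Rps27l 22.4%. Rpl7l1, a paralog of Rpl7, fell by 0.43 (SE 0.12, adjusted p = 0.021, edgeR) with SCFA in control mice, where Rpl7 differed by 0.49 (SE 0.17, adjusted p = 0.058). Rpl3l, the form of Rpl3 known from muscle, was low, at 1.37 to 1.88 CPM in control untreated and 3.43 to 3.90 CPM in control SCFA libraries, and rose by 1.19 (SE 0.34, adjusted p = 0.024). Rpl22l1, Rpl36al, Rpl39l, Rpl37rt, Rpl32l, Rps27rt, Rps3a2 and Rps3a3 passed no comparison.

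Rps4x and Rps4l moved in opposite directions in every comparison between 2 groups. Rps4x (chrX:102184941-102189394, minus strand) encodes a protein of the small subunit body, and Rps4l (chr6:148354656-148355598, plus strand) is annotated as a transcribed processed pseudogene, an intronless copy. Aligned over 789 bases, the Rps4l transcript was identical to the Rps4x coding sequence at 80.1% of positions. Of its 50-base windows 14.9% occur in other genes, so Rps4l can be largely told apart by sequence. For Rps4x that share is 72.2%, so its count may depend on how reads that fit several places were counted. The first 60 coding bases of Rps4x and bases 55 to 114 of the Rps4l transcript are printed, with the 7 positions at which they differ in capitals.
Rps4x: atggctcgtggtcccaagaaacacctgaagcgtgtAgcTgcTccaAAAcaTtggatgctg
Rps4l: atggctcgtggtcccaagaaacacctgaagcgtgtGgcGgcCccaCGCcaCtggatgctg
Rps4l had 7.02, 9.39 and 7.49 CPM in control untreated, 5.32, 4.68 and 4.36 in untreated homozygous libraries, 3.52, 4.32 and 3.92 in control libraries with SCFA, and 9.72, 12.1 and 9.92 in homozygous libraries with SCFA. The homozygous SCFA libraries were the highest of all 12, and no 2 groups overlapped. Rps4x had 118, 86.8 and 112, then 161, 162 and 139, then 131, 159 and 146, and last 104, 101 and 87.4 CPM, so that control untreated and homozygous SCFA libraries lay below all the others. In homozygous mice SCFA was accompanied by a rise of Rps4l by 1.14 (SE 0.22, adjusted p = 0.0047, edgeR) and a fall of Rps4x by 0.66 (SE 0.14, adjusted p = 0.0085). With coding GC offsets these were 0.88 (adjusted p = 0.012) and -0.46 (adjusted p = 0.0085). The interaction was 2.17 (SE 0.32, adjusted p = 0.00074) for Rps4l and -1.12 (SE 0.20, adjusted p = 0.0022) for Rps4x, and 1.36 and -0.65 with the offsets (adjusted p = 0.0088 and 0.011). The falls of Rps4l by genotype without SCFA (0.73) and with SCFA in control mice (1.02) were not called with coding GC offsets (-0.29 and -0.48, adjusted p = 0.41 and 0.16). For Rps4l, which has no coding sequence in the annotation, these offsets used the GC of its transcript, 59.1%. For Rps4x they used its coding GC, 47.6%.

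**Figure D5:**
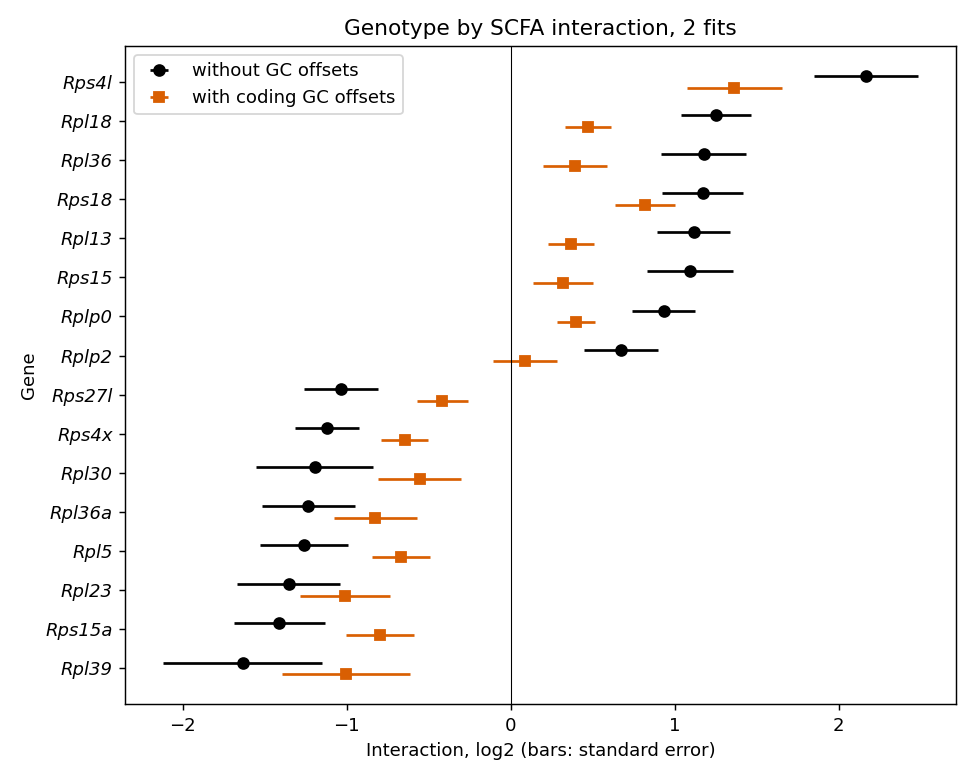
Interaction of genotype and SCFA on the log2 scale for 16 members described in the text, without GC offsets (circles) and with coding GC offsets (squares); bars are standard errors from edgeR. Values move toward 0 with the offsets in all 16, and Rps4l is highest in both fits, at 2.17 and 1.36.

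Other genes of the pathway were counted in the same way. In this and the following counts the background without offsets is 14.8% of all genes called by genotype without SCFA, 17.4% under SCFA, 21.9% with SCFA in control mice and 9.58% with SCFA in homozygous mice. Of 28 translation factors and other genes with a 5′ pyrimidine tract, 3 rose and 1 fell by genotype without SCFA, 4 rose and 3 fell under SCFA, 3 rose and 8 fell with SCFA in control mice, and 0 rose and 4 fell with SCFA in homozygous mice. These are 14.3%, 25%, 39.3% and 14.3% of the list. With coding GC offsets only Btf3 of these stayed called by genotype without SCFA, and only Eif3k and Snhg1 under SCFA. With SCFA in control mice Btf3, Eef1a1, Eef1d, Eef1g and Eef2 did, and in homozygous mice Gas5, Pabpc1 and Snhg1. In the same order 9.5%, 16.6%, 9.58% and 11.5% of all genes were called with these offsets. Eef2, the elongation factor that moves the ribosome along the mRNA, fell with SCFA in control mice by 1.01 (SE 0.18, adjusted p = 0.0047, edgeR; -0.53 and 0.0055 with coding GC offsets). Snhg1, a host transcript of small nucleolar RNAs, fell with SCFA in homozygous mice by 1.37 (SE 0.25, adjusted p = 0.0027, edgeR; -1.12 and 0.0016 with offsets). Of 50 ribosome biogenesis factors 2 rose and 12 fell with SCFA in control mice and 0 rose and 6 fell in homozygous mice. Without offsets these are 28% and 12% of the list called. With coding GC offsets 8 fell in control and 2 in homozygous mice, where 5.33% and 5.68% of all genes fell. The 8 are not all among the 12: of those 12, Aamp, Eif6, Polr1b and Ubtf stayed called with these offsets. Of the 6 in homozygous mice, Dkc1 and Nip7 stayed called. The falls without offsets included Eif6, which keeps the subunits apart during maturation, in control mice (0.88 lower, adjusted p = 0.0056, edgeR). In homozygous mice they included Dkc1, the pseudouridine synthase of ribosomal RNA (0.73 lower, adjusted p = 0.0031, edgeR). Genotype gave 4 rises and 2 falls among these factors both without and under SCFA, 12% of the list and below the background in both.

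Regulators of mTORC1 and MYC had 1 rise and 6 falls of 30 by genotype without SCFA, 5 and 3 under SCFA, 2 and 9 with SCFA in control mice and 1 and 1 in homozygous mice. These are 23.3%, 26.7%, 36.7% and 6.67% of the list. With coding GC offsets only Akt2 and Zbtb17 of these stayed called by genotype without SCFA. With SCFA in control mice only Akt2, Mlst8 and Zbtb17 did. Under SCFA all but Mxd1 and Mycn did, and with SCFA in homozygous mice Sesn1 alone. The shares of all genes called with these offsets were 9.5% without SCFA, 16.6% under SCFA, and 9.58% and 11.5% with SCFA in control and homozygous mice. Eif4ebp1, the translation repressor inactivated by mTORC1, rose by genotype under SCFA by 0.96 (SE 0.17, adjusted p = 0.0014, edgeR; 0.61 and 0.00080 with coding GC offsets). Sesn1, an inhibitor of mTORC1, fell by 0.75 (SE 0.14, adjusted p = 0.0025; -0.58 with offsets) in the same comparison. The list went both ways there: Tsc1 fell by 0.79 (adjusted p = 0.030, edgeR; -0.81 with offsets). Sesn2 rose by 0.80 and Deptor by 1.23 (adjusted p = 0.015 and 0.018, edgeR; 0.43 and 1.10 with offsets). The 77 mitochondrial ribosomal protein genes, encoded in the nucleus for a separate ribosome, had 12 rises and 2 falls by genotype without SCFA, 6 and 2 under SCFA, 6 and 12 with SCFA in control mice and 1 and 4 in homozygous mice. These are 18.2%, 10.4%, 23.4% and 6.49% of the list called in either direction, near or below the background. By direction, the 12 rises of 77 without SCFA are a larger share than the 6.69% of all genes that rose (8.13% fell). Of these 12, Mrpl30, Mrpl35, Mrpl39, Mrpl40, Mrpl47, Mrpl51, Mrps15, Mrps18c and Mrps2 were also called with coding GC offsets, where 4.87% of all genes rose. Mrps15 rose by genotype without SCFA by 0.57 with and without coding GC offsets (SE 0.12, adjusted p = 0.0069 without, edgeR).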

How the data were processed

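The deposited table holds raw read counts per gene symbol; the authors aligned reads with STAR to mm10 and counted them with featureCounts, per the submitters' processing notes, from poly(A) RNA amplified with a Clontech low-input kit, per the labels' protocols. The sources used here do not give the strand setting or the treatment of multiply mapped reads.

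All 12 libraries were fitted together in edgeR 4.0.16 (R 4.3.3; TMM scaling, filterByExpr by group, 1 mean per group, quasi-likelihood F test, Benjamini-Hochberg adjustment over 15674 genes). Log2 fold changes are edgeR's, and CPM uses TMM-scaled totals. DESeq2 1.42.0 and limma 3.58.1 were alternatives. Scripts were tested on simulated data. Gene lengths and sequences are from GENCODE M21, matched by symbol for 53180 symbols (96.2%).

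Members and lists were chosen with earlier results of these data known. Roles, GC measures (longest, then representative transcript, then coding sequence), GC groups and the printed sequences (1 chromosome left out) were chosen after values were seen. Named genes are, per comparison, up to 6 rises and 6 falls by fold change among called members with a mean of at least 5 CPM, with Rplp0, Rplp1, Rplp2, Rpl5, Rpl11, paralogs with their base genes, the 3 highest and lowest levels per length and 3 genes per other list; other genes were named after their values were seen. Some members that this rule names are not reported here.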

Additional observations from a re-analysis of the deposited data

Results flagged for a closer look

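The genotype difference changed with SCFA for 21 large and 22 small subunit genes (edgeR interaction, adjusted p under 0.05), 43 of the 89 members tested, where 25.1% of all genes were called. Interactions on the log2 scale were above 0 for Rps4l (2.17), Rpl18 (1.25), Rpl36 (1.18), Rps18 (1.17), Rpl13 (1.12), Rps15 (1.09), Rplp0 (0.93) and Rplp2 (0.67). They were below 0 for Rpl39 (-1.63), Rps15a (-1.41), Rpl23 (-1.35), Rpl5 (-1.26), Rpl36a (-1.23), Rpl30 (-1.20), Rps4x (-1.12) and Rps27l (-1.03). Of these 16, Rps4l, Rps18, Rps15a, Rpl23, Rpl5 and Rps4x passed in all 24 other settings tried.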

How the results depend on the processing

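Counts are of members called, large then small subunit, and are 7 and 11 (genotype without SCFA), 13 and 13 (under SCFA), 22 and 21 (SCFA in control mice), 0 and 2 (SCFA in homozygous mice) and 21 and 22 (interaction) as reported. Leaving out 1 library gave 0 to 14 and 1 to 15, 3 to 18 and 3 to 13, 3 to 27 and 1 to 22, 0 to 3 and 1 to 7, and 13 to 27 and 15 to 23. The share of all genes called then ranged over 4.66% to 26.2%, 8.66% to 19.9%, 3.71% to 30.8%, 4.48% to 12.1% and 14.8% to 32.5%. For genotype without SCFA the large subunit count was 14 with DESeq2 and 16 with limma-voom, and fitting only the 2 groups compared gave 1 and 1. Of all genes 24.5%, 25.0% and 6.34% were called in these fits, against 14.8% as reported. Under SCFA the large subunit count was 24 with limma-voom and 21 with only the groups compared. There 30.4% and 24.4% of all genes were called, against 17.4% as reported. For SCFA in control mice only the groups compared gave 14 and 12, where 14.1% of all genes were called (21.9% as reported). For SCFA in homozygous mice no low-count filter gave 4 and 6, DESeq2 5 and 7, limma-voom 9 and 13, only the groups compared 2 and 6, and library totals 4 in the small subunit. In that order 5.93%, 15.3%, 19.1%, 13.1% and 8.87% of all genes were called, against 9.58% as reported. Fitting only the groups compared cannot be had for the interaction, which uses all 4. The cause of these shifts was not tested.

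GC offsets were chosen after seeing the data. Coding GC gave 6 small subunit calls without SCFA, 8 large under SCFA, 8 and 6 for SCFA in control mice and 11 and 10 for the interaction. Representative transcripts gave 8 and 7 for SCFA in control mice, 2 large for SCFA in homozygous mice and 13 and 12 for the interaction. The shares of all genes called were 5.65%, 12.4% (9.58% as reported) and 9.45%. The longest transcripts gave 8 small under SCFA, 9 and 8 for SCFA in control mice, 3 large for SCFA in homozygous mice and 13 small for the interaction. For these comparisons 16.3%, 5.47%, 12.5% and 9.4% of all genes were called. With transcript offsets and a replicate block the counts were 11 large without SCFA, 7 large under SCFA, 10 and 8 for SCFA in control mice and 12 large for the interaction. All-gene shares were 9.07%, 15.8%, 5.05% and 8.82%. With coding offsets and the block the counts were 6 small without SCFA, 8 large under SCFA, 11 and 5 for SCFA in control mice, and 8 and 10 for the interaction. All-gene shares were then 9.15%, 15.7%, 8.88% and 11.4%.

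Replicate numbers are shared between groups, but deviations of same-numbered libraries correlated at -0.11 to 0.11 over 18 pairs, so the numbers do not pair the libraries. The replicate block alone gave 6 and 8, 11 and 12, 22 and 23, 0 and 3, and 19 and 22 calls. Of all genes 13.2%, 15.6%, 20.7%, 8.18% and 23.7% were called with it. Of log2 fold changes of single members under other settings, 1185 stayed on their side of the threshold, 324 no longer passed and 0 changed sign. These were picked among changes called in the fit as reported. Counts of called genes in the other lists of the pathway were less stable. Under other settings 288 of them stayed within a factor of 1.5 of the count reported and 208 did not. With transcript length in place of exon length the level was 12.2 TPM for Rps10, 23.3 for Rpl13a, 40.9 for Rpl10a and 486 for Rps3a1. With 3 libraries a group and low counts for Rps4l and Rpl3l, the number of libraries and depth limit small differences.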
